A study of Mus musculus with 12 samples.

Results

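The levels of 10 genes of oxygen-dependent JmjC proteins were followed in MLO-Y4 cells, a mouse line with the shape and several markers of osteocytes, the cells embedded in bone matrix. The genes were Kdm2a, Kdm3a, Kdm3b, Kdm4a, Kdm4b, Kdm4c, Kdm5a, Kdm5b, Kdm6b and Jmjd6, taken by name from the 19938 genes that carried 1 symbol on the array, and each was read by 1 transcript cluster. Cells were kept for 48 hours in the bore of a superconducting magnet, whose strong field with a steep gradient the labels call LG-HMF, at an apparent gravity of μ-g, 1-g or 2-g, or outside the magnet under normal gravity as control, with 3 arrays per group. All groups were the same line, kept in wells inside a culture dish, and the dishes of the 3 magnet groups were brought into the bore by an object holder. The μ-g and 2-g positions had the same field strength and opposite magnetic forces, while the 1-g position had a stronger field and no force. Field and place of culture therefore cannot be told apart in the comparisons with control. Inside the magnet each group had its own position in the bore, so apparent gravity and position cannot be told apart there. The labels call the arrays biological replicates without saying whether they came from separate cultures, so the p-values measure only the spread between these samples.

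Proteins with a JmjC domain bind iron and use molecular oxygen and 2-oxoglutarate to hydroxylate their substrates, and on histones this removes methyl groups from lysine. Each enzyme acts on certain marks. Kdm2a removes methyl groups from lysine 36 of histone H3, the Kdm3 proteins from lysine 9, the Kdm4 proteins from the trimethylated forms of lysines 9 and 36, the Kdm5 proteins from lysine 4 and Kdm6b from lysine 27. Jmjd6 hydroxylates lysine in splicing factors and has also been described as an arginine demethylase. KDM3A and KDM4B are well known among the genes that HIF-1, the transcription factor of the response to low oxygen, activates in many cell types. Lysine 4 methylation is found at active promoters, and lysine 9 and 27 methylation at silent chromatin.

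RefSeq promoter sequences (build GRCm38.p6) were matched for Kdm3a, Kdm4a, Kdm4c, Kdm5b and Jmjd6, 5 of the 10 genes. The 250 bases before each start site were searched on both strands for ACGTG and GCGTG, which are the core letters of the element that HIF proteins bind. Of all 32851 windows of this length, 38.6% held at least 1 match, with ACGTG in 16.6% and GCGTG in 28.2%. The whole Kdm5b window, chr1:134559928-134560177 on the plus strand, is shown first because the gene was among those higher in 2-g and its window held a match at each end. The matches are in capitals, ACGTG from base −229 and GCGTG from base −19, counted back from the start site.
Kdm5b: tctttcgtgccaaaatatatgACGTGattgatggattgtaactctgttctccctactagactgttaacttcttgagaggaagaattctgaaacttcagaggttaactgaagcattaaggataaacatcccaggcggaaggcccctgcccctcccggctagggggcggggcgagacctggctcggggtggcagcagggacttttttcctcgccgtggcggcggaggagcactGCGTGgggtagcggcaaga

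Kdm3a and Jmjd6, also higher in 2-g, are shown by the bases around their matches, which are again in capitals. In the first of 3 Kdm3a windows the match lay at base −27 (chr6:71632928-71632956, minus strand), and the other windows held none. Jmjd6 had a match on the other strand at base −228, where CACGT is the reverse complement of ACGTG (chr11:116843661-116843689, minus strand), and one at base −11 (chr11:116843450-116843478, minus strand). Kdm4c, which passed no test, is set beside them because its second window held 6 matches, a number that 0.417% of all windows reached. It was chosen after its values were seen. The stretch shown is chr4:74251822-74251851 on the plus strand, and its letters CACGTG count as a match on each strand, the pair overlapping. The first Kdm4c window and the Kdm4a window held no match. The annotated gene extends to chr6:71632990 for Kdm3a and to chr11:116843767 for Jmjd6, and starts at chr4:74242497 for Kdm4c. The stretches shown for these genes therefore lie inside the annotated gene, before a start site other than the outermost. The letters in capitals describe the windows, and binding was not measured.
Kdm3a: ccgggaggctgtGCGTGtcttgtgagaga
Jmjd6 far: aggccgggctcgCACGTaggggagtccag
Jmjd6 near: caacatggcgcccaattgGCGTGcatgaa
Kdm4c: cggtCACGTGggggcGCGTGcgccaCACGC

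The arrays resembled each other closely. Pearson's r across all transcript clusters, which are not independent replicates, was between 0.9965 and 0.9982 within groups and between 0.9946 and 0.9985 between groups, and array medians lay between 7.041 and 7.117. The number of arrays limits the precision. Of 8 osteocyte markers, Pdpn (12.06 to 12.36 on the log2 scale over the 12 arrays), Gja1 (11.95 to 12.39) and Capg (12.49 to 12.66) gave strong signals. Dmp1 (5.42 to 5.78), Mepe (5.05 to 5.17) and Phex (5.34 to 5.48), defining genes of mature osteocytes, stayed near the lowest value of the table, 4.51. Sost (7.08 to 7.44) and Fgf23 (6.67 to 7.06) lay in between. Limma called 0 of the 8 in any comparison, with at most 1 passing at unadjusted p in each.

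The group means followed 3 patterns over the 4 groups. Their order among control, 1-g and μ-g was not settled, since none of the differences between these groups passed for the 10 genes. Kdm3a, Kdm4b and Jmjd6 were highest in 2-g, next in control and lowest in 1-g and μ-g. Kdm5b and Kdm6b were highest in 2-g with the other groups close together, and Kdm2a was highest in 2-g and lowest in control. Kdm3b, Kdm4a, Kdm4c and Kdm5a differed by little. In limma's F test of any difference among the groups, 5 of the 10 genes passed with an adjusted p under 0.05, against 3.15% of the 19938 genes. These were Kdm2a (adjusted p = 0.0136), Kdm3a (0.00643), Kdm4b (5.36e-04), Kdm5b (0.00556) and Jmjd6 (0.00479). With the replicate block Kdm6b passed too, and the Kdm2a call was lost without 2-g replicate 1 (adjusted p = 0.0503) or 2-g replicate 3 (0.0793). All 3 of the 2-g arrays lay above all 9 other arrays for 6 of the 10 genes, these 5 and Kdm6b, and for 2.59% of all genes. Kdm3a, Kdm4b, Kdm5b and Jmjd6 are also among the oxygen-using enzymes that the study picked from these arrays, so the counts and medians of members are not independent evidence of a direction.

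**Figure D1:**
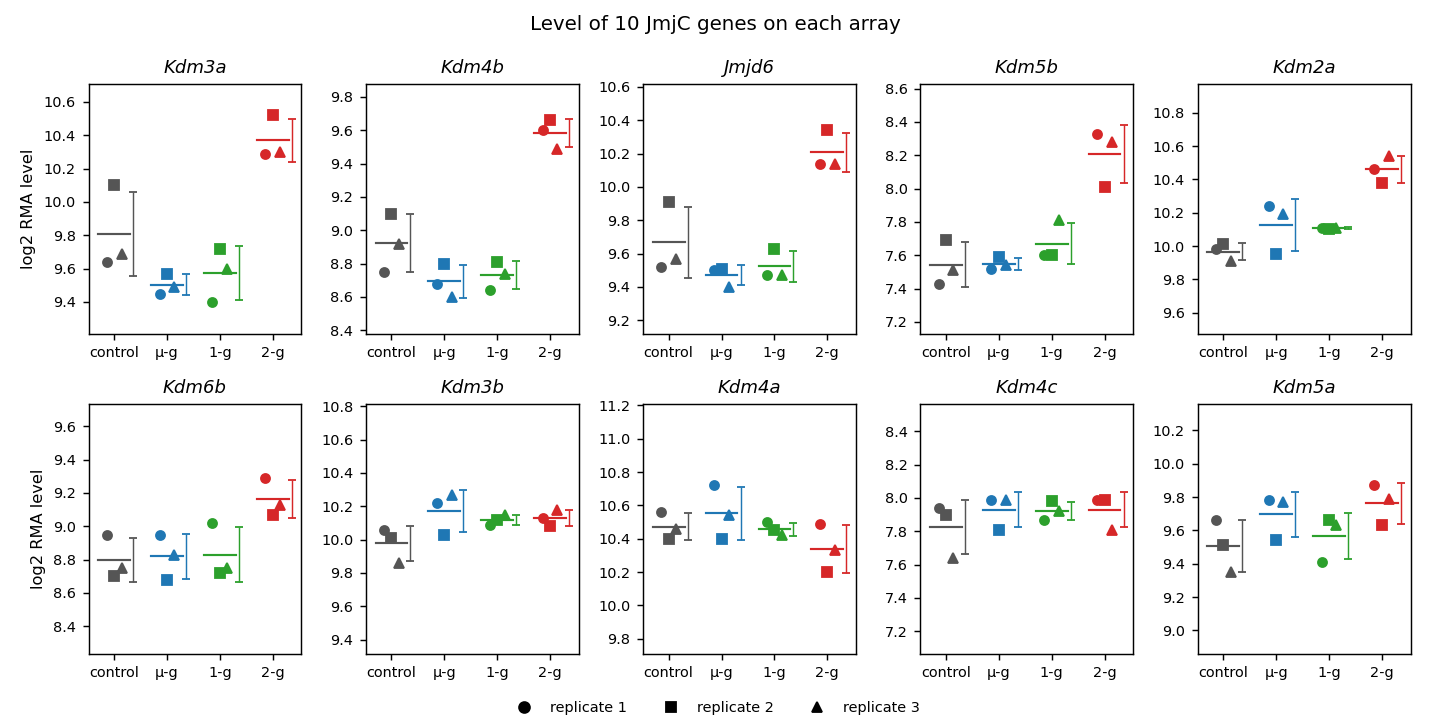
Log2 RMA level (vertical axis, each panel with its own range of equal height) of the 10 JmjC genes on each of the 12 arrays by group, with the mean as a line, the SD as a bar (n = 3) and the replicate number as the symbol. Kdm3a, Kdm4b, Jmjd6, Kdm5b, Kdm2a and Kdm6b have all 3 of the 2-g arrays above the other 9, while Kdm3b, Kdm4a, Kdm4c and Kdm5a overlap between 2-g and other groups.

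Kdm3a (transcript cluster 10545308), which removes methyl groups from mono- and dimethylated lysine 9, had log2 levels of 10.29, 10.52 and 10.30 on the 2-g arrays, replicates 1 to 3 in order as in all lists that follow. In control the levels were 9.64, 10.10 and 9.69, in 1-g 9.40, 9.72 and 9.60, and in μ-g 9.45, 9.57 and 9.49. All 2-g arrays were above every other array, and control replicate 2 stood above the other control arrays and closest to 2-g. The group means were 10.37 ± 0.13 (SD, n = 3) in 2-g, 9.81 ± 0.26 in control, 9.57 ± 0.17 in 1-g and 9.50 ± 0.06 in μ-g. Of the neighbours in this order, 2-g and control differed (adjusted p = 0.0269), while control and 1-g (0.513) and 1-g and μ-g (1) did not pass.

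Kdm4b (transcript cluster 10446084) acts on trimethylated lysine 9. Its log2 levels were 9.60, 9.66 and 9.49 in 2-g, 8.75, 9.10 and 8.92 in control, 8.64, 8.81 and 8.74 in 1-g, and 8.68, 8.80 and 8.60 in μ-g. The lowest 2-g array, at 9.49, was above the highest other array, control replicate 2 at 9.10, while the remaining groups overlapped with one another. The means were in the same order as for Kdm3a, 9.58 ± 0.09 (SD over 3 arrays) in 2-g, 8.92 ± 0.18 in control, 8.73 ± 0.09 in 1-g and 8.69 ± 0.10 in μ-g. Only the step from 2-g to control passed (adjusted p = 0.00344), and those from control to 1-g (0.449) and from 1-g to μ-g (1) did not.

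For Jmjd6 (transcript cluster 10393387) the 2-g arrays read 10.14, 10.34 and 10.14, the control arrays 9.52, 9.91 and 9.57, the 1-g arrays 9.47, 9.63 and 9.47, and the μ-g arrays 9.50, 9.51 and 9.40 on the log2 scale. Again 2-g stood clear of all others and control replicate 2 was the highest of the rest. Mean levels were 10.21 ± 0.12 (SD over 3 arrays) in 2-g, 9.67 ± 0.21 in control, 9.52 ± 0.09 in 1-g and 9.47 ± 0.06 in μ-g. The step from 2-g to control passed (adjusted p = 0.0140), whereas control and 1-g (0.662) and 1-g and μ-g (1) were not separated by the test.

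Kdm5b (transcript cluster 10350046), an eraser of lysine 4 methylation, had log2 levels of 8.33, 8.01 and 8.28 in 2-g, 7.60, 7.60 and 7.81 in 1-g, 7.52, 7.59 and 7.54 in μ-g, and 7.43, 7.69 and 7.51 in control. The 2-g arrays were the highest, and the μ-g arrays lay within the range of the control arrays. Group means were 8.21 ± 0.17 (SD over 3 arrays) in 2-g, 7.67 ± 0.12 in 1-g, and 7.55 in both μ-g (SD 0.03) and control (SD 0.13). The step from 2-g to 1-g passed (adjusted p = 0.0116), that from 1-g to μ-g (1) did not, and μ-g and control differed by 0.00 on the log2 scale (95% interval −0.20 to 0.20).

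Kdm2a (transcript cluster 10464728) binds unmethylated CpG islands and demethylates lysine 36. It read 10.46, 10.38 and 10.54 in 2-g, 10.24, 9.95 and 10.19 in μ-g, 10.11, 10.10 and 10.11 in 1-g, and 9.98, 10.01 and 9.91 in control. Here the control arrays lay below every 1-g array and overlapped with μ-g through μ-g replicate 2, and control replicate 2 lay close to the other control arrays. The means were 10.46 ± 0.08 (SD over 3 arrays) in 2-g, 10.13 ± 0.16 in μ-g, 10.11 ± 0.01 in 1-g and 9.96 ± 0.05 in control. Neighbours in this order differed between 2-g and μ-g (adjusted p = 0.0318) and not at the threshold between μ-g and 1-g (1) or 1-g and control (0.509).

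Kdm6b (transcript cluster 10387372), which removes methyl groups from lysine 27, had log2 levels of 9.29, 9.07 and 9.13 in 2-g, 9.02, 8.72 and 8.75 in 1-g, 8.95, 8.68 and 8.83 in μ-g, and 8.95, 8.70 and 8.75 in control. Replicate 1 was the highest array in every group, and the lowest 2-g array, at 9.07, was just above the highest other array, at 9.02. Mean levels were 9.16 ± 0.11 (SD over 3 arrays) in 2-g and between 8.80 and 8.83 elsewhere.

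The other 4 genes had group means that lay within 0.26 of each other. Kdm3b, a lysine 9 demethylase like Kdm3a, had a mean of 10.17 ± 0.13 (n = 3) in μ-g, 10.13 ± 0.05 in 2-g, 10.12 ± 0.03 in 1-g and 9.98 ± 0.10 in control. Kdm4a had a mean level of 10.55 ± 0.16 in μ-g, 10.47 ± 0.08 in control, 10.46 ± 0.04 in 1-g and 10.34 ± 0.14 in 2-g. It was the only one of the 10 genes with its lowest mean in 2-g. Kdm4c, a paralog of Kdm4a and Kdm4b, averaged 7.93 in μ-g and 2-g (SD 0.11 in both), 7.92 ± 0.06 in 1-g and 7.82 ± 0.16 in control. Kdm5a, a paralog of Kdm5b, averaged 9.77 ± 0.12 in 2-g, 9.69 ± 0.14 in μ-g, 9.56 ± 0.14 in 1-g and 9.51 ± 0.15 in control. Arrays of 2-g and of at least 1 other group overlapped for each of the 4.

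Set 2 (2-g v.s. control) asked how the genes stood at the raised apparent gravity against normal culture. Here 5 of the 10 genes rose, 0 fell and 5 did not pass, and 1.68% of all genes rose. The median log2 fold change of the 10 was 0.43, against −0.00 over all genes. Kdm4b rose by 0.66 (SE 0.09, 95% interval 0.47 to 0.85, adjusted p = 0.00344), a fold of 1.58, and Kdm5b by 0.66 (SE 0.09, 0.46 to 0.86, adjusted p = 0.00441). Kdm3a rose by 0.56 (SE 0.12, 0.30 to 0.82, adjusted p = 0.0269), Jmjd6 by 0.54 (SE 0.10, 0.33 to 0.75, adjusted p = 0.0140) and Kdm2a by 0.50 (SE 0.07, 0.34 to 0.65, adjusted p = 0.00552). At the limit of the study's methods, above 1.5-fold with P under 0.05, read here as unadjusted, Kdm4b and Kdm5b were higher, 2 of 10 against 0.331% of all genes.

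In the Kdm3, Kdm4 and Kdm5 families, 1 member each rose in set 2. Of the Kdm4 genes, Kdm4b rose while Kdm4a (−0.14, 95% interval −0.33 to 0.05, adjusted p = 0.496) and Kdm4c (0.11, −0.08 to 0.29, adjusted p = 0.623) did not pass. Of the Kdm3 genes, Kdm3a rose and Kdm3b did not pass (0.15, −0.00 to 0.30, adjusted p = 0.315). Of the Kdm5 genes among the 10, Kdm5b rose and Kdm5a did not pass (0.26, 0.04 to 0.47, adjusted p = 0.205). Outside the 10, Kdm5c also rose, as given below, and Kdm5d did not pass. Differences between paralogs were not tested, since they are read by different probes. Kdm6b had a value of 0.36 (SE 0.10, 0.15 to 0.58, adjusted p = 0.0759). It passed with the replicate number as a block (adjusted p = 0.00128) and when only genes above the median level were tested (0.0423).

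In set 2 the calls of Kdm2a, Kdm4b and Kdm5b held in each of 19 alternative fits. The Kdm3a call was lost without 2-g replicate 2 (adjusted p = 0.0933), 2-g replicate 3 (0.0818), control replicate 1 (0.0951) or control replicate 3 (0.117), and in a fit restricted to the 6 arrays compared (0.0849). Without control replicate 2 the 5 calls held, with 0.71 for Kdm3a, 0.75 for Kdm4b and 0.66 for Jmjd6. The Jmjd6 call was lost without 2-g replicate 2 (adjusted p = 0.0504), control replicate 1 (0.0584) or control replicate 3 (0.0684), and in the fit of 6 arrays (0.0725).

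**Figure D2:**
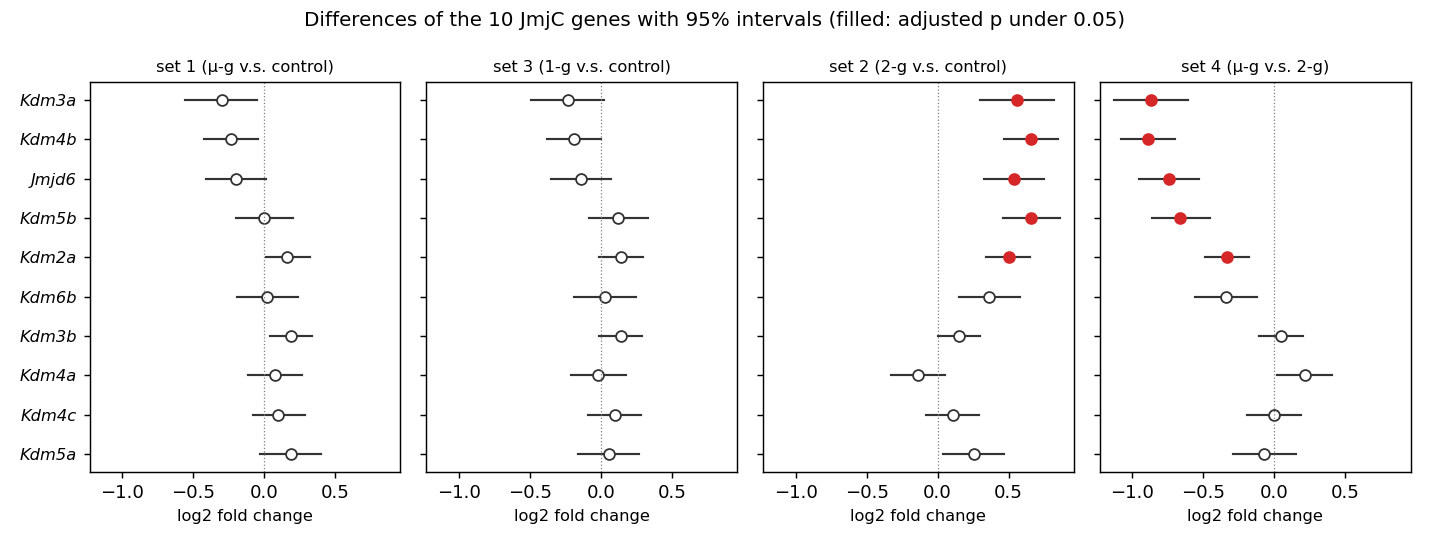
Log2 fold change (horizontal axis) of each of the 10 JmjC genes in set 1, set 3, set 2 and set 4, as points with 95% intervals from limma, filled where the adjusted p was under 0.05. The filled points are the same 5 genes in set 2, from 0.50 to 0.66, and in set 4, from −0.89 to −0.33, and there are none in set 1 and set 3.

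Set 4, which is μ-g v.s. 2-g, compared the positions with equal field strength and opposite force. Force and position in the bore cannot be told apart in it. Its difference uses no control array, although the estimate of spread does, and it shares the 2-g arrays with set 2, so the values are given side by side only. Of the 10 genes 5 fell, 0 rose and 5 did not pass, and 1.49% of all genes fell. The median log2 fold change was −0.34 for the 10 genes and 0.03 over all genes. The log2 fold change was −0.89 for Kdm4b (SE 0.09, adjusted p = 2.07e-04), −0.87 for Kdm3a (SE 0.12, adjusted p = 0.00267), −0.74 for Jmjd6 (SE 0.10, adjusted p = 0.00197), −0.66 for Kdm5b (SE 0.09, adjusted p = 0.00312) and −0.33 for Kdm2a (SE 0.07, adjusted p = 0.0318). These sizes correspond to folds of 1.85, 1.82, 1.67, 1.57 and 1.26. Above 1.5-fold at unadjusted P, 4 of the 10 genes, all but Kdm2a of these, were lower, against 0.597% of all genes.

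The other 5 genes did not pass in set 4. Kdm6b had −0.34 (SE 0.10, adjusted p = 0.0960 and 0.00122 with the replicate block) and Kdm4a, in the other direction, 0.22 (SE 0.09, adjusted p = 0.231 and 0.0307 with the block). Kdm3b (0.05), Kdm4c (−0.00) and Kdm5a (−0.07) had intervals that covered 0. The calls of Kdm3a, Kdm4b, Kdm5b and Jmjd6 held in each of the 19 alternative fits. The Kdm2a call was lost without 2-g replicate 1 (adjusted p = 0.0694), 2-g replicate 2 (0.0514), 2-g replicate 3 (0.127) or μ-g replicate 3 (0.0597), in the fit of 6 arrays (0.116) and with arrays centred on their medians (0.0501).

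The other comparison with 2-g inside the magnet, 2-g v.s. 1-g, gave the same 5 genes. They rose, 0 of the 10 fell, and 1.26% of all genes rose. Kdm4b rose by 0.85 (SE 0.09, adjusted p = 3.52e-04), Kdm3a by 0.80 (SE 0.12, adjusted p = 0.00469), Jmjd6 by 0.68 (SE 0.10, adjusted p = 0.00379), Kdm5b by 0.53 (SE 0.09, adjusted p = 0.0116) and Kdm2a by 0.35 (SE 0.07, adjusted p = 0.0269). Kdm6b had 0.33 (adjusted p = 0.120 and 0.00158 with the block). Above 1.5-fold at unadjusted P, Kdm3a, Kdm4b and Jmjd6 were higher, 3 of 10 against 0.552% of all genes. The Kdm2a call was lost without 1-g replicate 1 (adjusted p = 0.0862), 1-g replicate 2 (0.0858), 1-g replicate 3 (0.0690), 2-g replicate 1 (0.0648) or 2-g replicate 3 (0.117). The Kdm5b call was lost without 1-g replicate 1 (0.0565), 1-g replicate 2 (0.0501) or 2-g replicate 3 (0.0608), and in the fit of 6 arrays (0.0515).

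Set 1 (μ-g v.s. control) and set 3 (1-g v.s. control) share the control arrays. In set 1 limma called 0 of the 10 genes, against 0.823% of all genes in either direction, and at unadjusted p 2 were higher (Kdm2a and Kdm3b) and 2 lower (Kdm3a and Kdm4b), against 9.94% and 4.1% of all genes. Kdm3a had a log2 fold change of −0.30 (95% interval −0.56 to −0.05, adjusted p = 0.264), Kdm4b of −0.23 (−0.42 to −0.04, adjusted p = 0.249) and Jmjd6 of −0.20 (−0.41 to 0.01, adjusted p = 0.392). Kdm3b had 0.19 (0.04 to 0.34, adjusted p = 0.228) and Kdm2a 0.16 (0.01 to 0.32, adjusted p = 0.334). In set 3 limma called 0 of the 10 genes, against 0.321% of all genes, and 1 gene was lower at unadjusted p (3.03% of all genes), Kdm4b at −0.19 (−0.38 to −0.00, adjusted p = 0.449). Kdm3a had −0.23 (−0.49 to 0.02) and Jmjd6 −0.14 (−0.35 to 0.07) there. For Kdm3a and Jmjd6 control replicate 2 widened the control group, to an SD of 0.26 and 0.21. Without it limma still called 0 of the 10 genes in both sets, and set 1 gave −0.16 for Kdm3a, −0.14 for Kdm4b and −0.08 for Jmjd6, and set 3 gave −0.09, −0.11 and −0.02.

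Between μ-g and 1-g limma called 0 of the 10 genes and 0% of all genes (0 of 19938). At unadjusted p, 0 of the 10 passed, and 273 genes were higher and 187 lower over the array. Values of the 10 genes ran from −0.12 for Kdm5b (95% interval −0.32 to 0.08) to 0.13 for Kdm5a (−0.09 to 0.35). For Kdm4b, the gene with the smallest adjusted p in set 4, the difference was −0.04 (−0.23 to 0.15).

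Other enzymes of histone and DNA methylation were taken as whole lists to place these values. Of 21 further JmjC genes 20 were measured. Their median log2 fold change was 0.03 in set 2 and 0.08 in set 4. In set 2 Kdm5c, a lysine 4 demethylase and paralog of Kdm5b, rose by 0.26 (adjusted p = 0.0196), and 19 did not pass. In set 4 Kdm8, a JmjC hydroxylase linked to cell division, rose by 0.32 (adjusted p = 0.0197), opposite to the 5 genes that fell. In set 1 Phf8, which acts on lysine 9, rose by 0.27 (adjusted p = 0.0326). In set 3 limma called 0 of the 20, with 4 higher and 1 lower at unadjusted p, against 7.79% and 3.03% of all genes.

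The TET proteins oxidise methylated cytosine in DNA with the same cofactors. Tet2 read 9.02, 8.84 and 8.85 in 2-g, 8.15, 8.40 and 7.99 in control, 8.18, 8.28 and 8.20 in 1-g, and 8.30, 8.15 and 8.41 in μ-g. The 2-g arrays stood above all others, and the other groups overlapped. It rose in set 2, by 0.73 on the log2 scale (SE 0.10 and adjusted p = 0.00344), and fell in set 4, with −0.62 (SE 0.10, adjusted p = 0.00591). Tet2 too is among the enzymes that the study picked from these arrays. Tet3 had values of 0.30 (adjusted p = 0.115) and −0.23 (0.231), and Tet1 of 0.11 and −0.10.

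Demethylases that use flavin in place of iron, and the methyltransferases that write the same marks, were few and held no called gene. In each of the 6 comparisons limma called 0 of the 2 flavin enzymes, 0 of 5 lysine 9, 0 of 6 lysine 4, 0 of 4 lysine 27 and 0 of 4 lysine 36 methyltransferase genes. At unadjusted p in set 2, 0, 1, 2, 0 and 0 of them were higher, in that order, against 8.65% of all genes. With so small a share of all genes called at adjusted p, such as the 1.68% that rose in set 2, counts of 0 in lists of this size say little. In set 4 only 1 flavin enzyme, Kdm1b, was higher at unadjusted p (0.34, adjusted p = 0.107), against 11.4% of all genes. Their medians in set 2 lay between 0.02 and 0.21, below the 0.43 of the 10 JmjC genes, and in set 4 between 0.00 and 0.19. The 10 include genes that the study picked from these same arrays, so the gap between medians is not independent evidence.

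**Figure D3:**
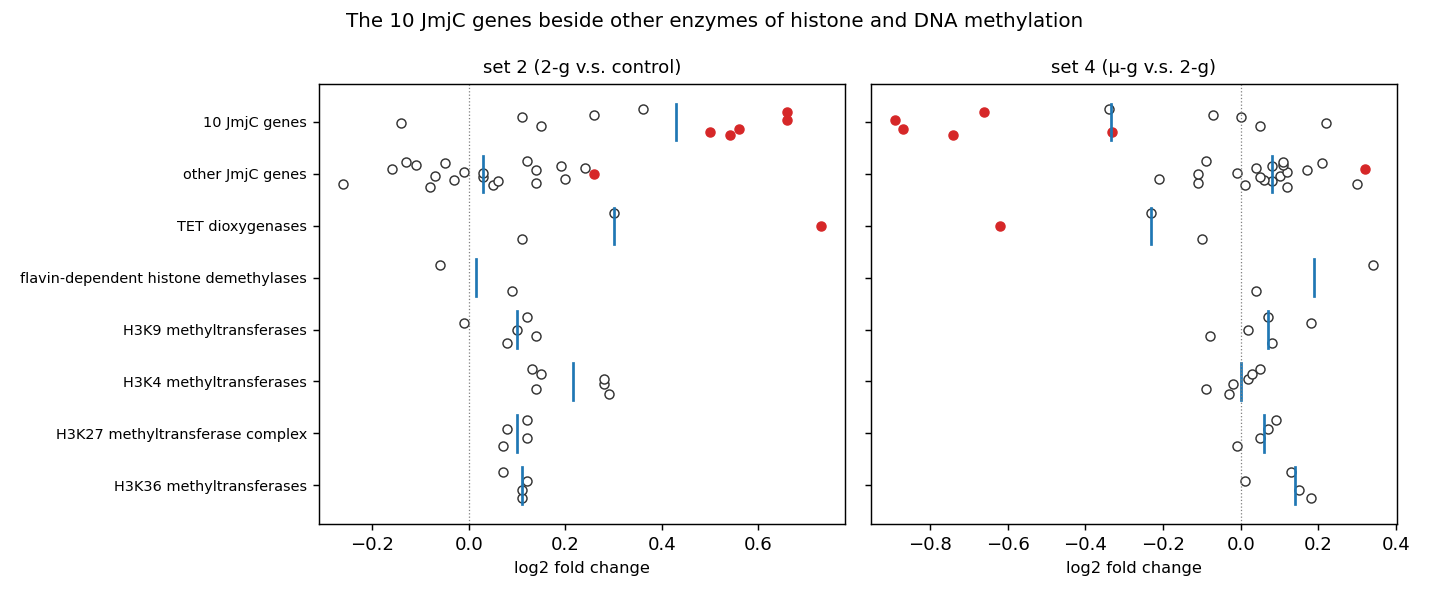
Log2 fold change (horizontal axis) of each gene in set 2 and set 4, by list (rows), filled where the adjusted p was under 0.05, with the median of each list as a vertical bar. Filled points are the 5 JmjC genes, Kdm5c, Tet2 and Kdm8, and the medians of the 10 JmjC genes are 0.43 in set 2 and −0.34 in set 4.

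Genes known to respond to low oxygen were read beside these results. Of 10 hypoxia reference genes, 8 rose in set 2, 9 fell in set 4, 5 fell in set 1 and 4 fell in set 3. Over all 19938 genes, 1.68% rose in set 2 and 1.49% fell in set 4, while 77 genes fell in set 1 and 29 in set 3. The 9 that fell in set 4 also rose in 2-g v.s. 1-g, which shares the 2-g arrays and where 1.26% of all genes rose. The mean log2 level of all 10 per array was 10.66, 10.84 and 10.65 in 2-g, 9.88, 10.29 and 9.52 in control, 9.09, 9.10 and 8.93 in 1-g, and 8.97, 9.07 and 8.92 in μ-g. Control replicate 2 was again the highest control array, as it was for Kdm2a, Kdm3a, Kdm4b, Kdm5b and Jmjd6. For Kdm3b, Kdm4c and Kdm5a it was the middle control array, and for Kdm4a and Kdm6b the lowest. Bnip3, which acts in the removal of mitochondria, read 11.78, 12.03 and 10.95 in control and 12.57, 12.66 and 12.50 in 2-g. By size among the genes that passed, those leading in set 2 were Ndufa4l2 (1.60), Pdk1 (1.04), Bnip3 (0.99) and Egln3 (0.92). Those leading in set 4 were Ndufa4l2 (−3.72), Car9 (−3.14), Bnip3 (−2.69) and Pdk1 (−2.51). They include a kinase that inhibits pyruvate dehydrogenase (Pdk1), a carbonic anhydrase (Car9) and a prolyl hydroxylase of the HIF proteins (Egln3). In set 1 Ndufa4l2 (−2.12), Bnip3 (−1.70), Pdk1 (−1.47) and Egln1 (−0.84) led, and in set 3 Ndufa4l2 (−2.04), Bnip3 (−1.45), Egln1 (−0.84) and Ndrg1 (−0.35) fell. Vegfa, the vascular growth factor, had a value of 0.03 in set 2 and passed in none of the comparisons. Many of these genes are named in the study's tables from the same arrays, and oxygen was not measured. The part of oxygen in the levels of the JmjC genes was not tested.

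**Figure D4:**
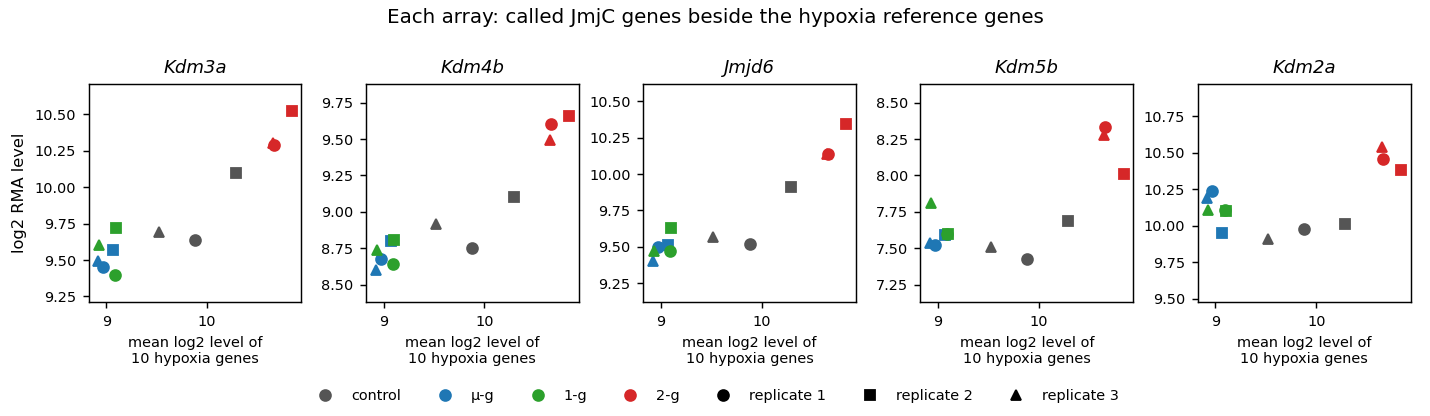
Log2 RMA level of the 5 called JmjC genes (vertical axes, one panel each) against the mean log2 level of 10 hypoxia reference genes (horizontal axes) on each of the 12 arrays, with groups by colour and replicate number by symbol. For Kdm3a, Kdm4b, Jmjd6 and Kdm5b control replicate 2, at 10.29 on the horizontal axis, lies between the other control arrays and 2-g. For Kdm2a it lies level with the other control arrays. In the Kdm5b panel 1-g replicate 3, at 8.93 on the horizontal axis, reads 7.81, above control replicate 2 at 7.69.

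The genes most like each called member were found by Pearson's r of the log2 level over the 12 arrays, given as a description. The points share 4 groups and 1 normalization, so r is no test. For Kdm3a the closest were Jmjd6 (r = 0.986), Ccng2 (0.984), an atypical cyclin, and Adm (0.981), which encodes the peptide adrenomedullin. Kdm4b was closest to Rcor2 (0.988), a corepressor of the CoREST family, Adm (0.984) and Jmjd6 (0.983). Jmjd6 was closest to Rcor2 (0.989), B130024G19Rik (0.986) and Kdm3a (0.986). The other called genes had different neighbours. Kdm5b was closest to Bcl9l (0.974), a coactivator of beta-catenin, Samd14 (0.972) and Adamtsl4 (0.943). Kdm2a was closest to Npepps (0.965), an aminopeptidase, Foxo1 (0.945), a forkhead transcription factor, and Abl1 (0.941), a tyrosine kinase.

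Markers of other cell types were read beside these results. Of 7 macrophage markers only Cd68, a lysosomal protein, passed, with a rise in set 4 of 0.55 (adjusted p = 0.0247), and it fell by 0.66 in 2-g v.s. 1-g. Of 5 osteoclast markers only Ctsk, a protease also made by osteocytes, passed. It fell in set 2 by 0.50 on the log2 scale (adjusted p = 0.0179), rose in set 4 by 0.58 (adjusted p = 0.00770) and fell in 2-g v.s. 1-g by 0.61. The mean log2 level of the macrophage markers ran from 7.07 to 7.14 in 2-g, 7.14 to 7.27 in control, 7.13 to 7.29 in 1-g and 7.18 to 7.27 in μ-g. That of the osteoclast markers ran from 7.33 to 7.45 in 2-g, 7.47 to 7.51 in control, 7.50 to 7.52 in 1-g and 7.50 to 7.59 in μ-g. The osteoclast mean was lower on every 2-g array than on any other array, while the macrophage mean of 2-g touched that of control and overlapped that of 1-g. In set 2 the lower osteoclast mean came from Ctsk, while Acp5 (−0.03), Calcr (−0.04), Dcstamp (0.00) and Ocstamp (0.10) moved little. The part of the macrophage and osteoclast markers in the result was not tested. Over all arrays Ctsk ran from 11.93 to 12.78, Cd68 from 9.14 to 9.98, Cd14 from 8.79 to 9.33, Lyz2 from 7.05 to 7.77, Csf1r from 7.05 to 7.42, Ocstamp from 6.76 to 7.05 and Acp5 from 6.65 to 6.89. Itgam (5.71 to 6.04), Ptprc (5.52 to 5.83), Calcr (5.56 to 5.88), Dcstamp (5.50 to 5.67) and Adgre1 (5.37 to 5.57) lay nearer to the lowest value of the table. In bulk RNA fewer cells of a type and less RNA per cell cannot be told apart.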

How the data were processed

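Each of 12 RNA samples of MLO-Y4 cells, 3 per group, had its own Affymetrix array (Mouse Gene 1.0 ST). The log2 values deposited for 28856 transcript clusters had been normalized by the authors with RMA, so background correction and summarisation are theirs. Clusters were named through the platform table and RefSeq gene identifiers. Of these, 21789 carried 1 symbol, 1621 several and 5446 are unnamed here (83 identifiers unmatched). For the 999 genes with several clusters the one with the highest mean was taken. Ash1l, Suv39h1, Jmjd7 and Ccnb1 are not analysed here.

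The 4 group means were estimated over all clusters with limma 3.58.1 in R 4.3.3 (8 residual and 3.9 prior degrees of freedom), and p-values were adjusted after Benjamini and Hochberg over 19938 genes. Genes are said to have risen or fallen at an adjusted p under 0.05. On simulated data 194 of 200 genes with a log2 change of 1 were recovered in set 1. The changes of the 10 members were smaller than 1, and the simulated noise was independent between arrays. The recovery therefore gives no rate for the members. The 10 members and the lists were chosen with earlier results of these data known. All members are named, as are list genes called in set 1 to set 4 (up to 4 per list and comparison, by size) and the 3 genes most like each member called by the F test. Kdm4c's sequence, Tet1, Tet3, Kdm1b, Vegfa and single marker genes were named outside this rule.

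Deviations from group means correlated at 0.342 on average between arrays of the same replicate number and at −0.171 between other numbers. The deviations within a group cancel, so the second average is bound to the first and is no further evidence of pairing. Each pair of the same number exceeded 0.1 in every comparison but set 1, where replicates 3 had 0.0179, so the block is given beside other comparisons where it changed a call. The pairing comes from these values alone. Alternatives were a fit of the 6 arrays compared, the block, genes above the median level, median centring, quantile normalization, an intensity trend with a robust prior, the mean of a gene's clusters, and leaving out each array.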

Additional observations from a re-analysis of the deposited data

Results flagged for a closer look

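The effect of 2-g against control differed from that of another magnet position for 5 of the 10 JmjC genes, by limma's contrast of the positions themselves, in which the shared control cancels. The μ-g effect minus the 2-g effect was −0.33 for Kdm2a, −0.87 for Kdm3a, −0.89 for Kdm4b, −0.66 for Kdm5b and −0.74 for Jmjd6 on the log2 scale. The 2-g effect minus the 1-g effect was 0.35 for Kdm2a, 0.80 for Kdm3a, 0.85 for Kdm4b, 0.53 for Kdm5b and 0.68 for Jmjd6. These values repeat set 4, where 1.49% of all genes fell, and 2-g v.s. 1-g, where 1.26% rose. Some alternative fits lost the Kdm2a call in both comparisons and the Kdm5b call in 2-g v.s. 1-g. Groups of 3 arrays were too small to be searched for single arrays that stand apart.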

How the results depend on the processing

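With the replicate number as a block the number of genes called was 1 in set 1 (Kdm3a, −0.30, adjusted p = 0.0360, where replicates 1 and 2 correlated at 0.4283 and 0.4846 and replicates 3 at 0.0179, below the limit set for pairing), 6 in set 2, 0 in set 3, 7 in set 4, 0 in μ-g v.s. 1-g, 6 in 2-g v.s. 1-g and 6 by the F test, and the block changed no other call than those of Kdm3a, Kdm4a and Kdm6b and ended none. A fit of only 6 arrays called 3 genes in set 2. Leaving out 1 array gave 3 to 5 calls in set 2 and 3 to 5 in 2-g v.s. 1-g. Of the members' fold changes under all alternatives, 1088 kept their side of the threshold and did not turn sign, 24 lost a call, 6 gained one and 22 turned sign, where values that round to 0.00 count as having no sign. None of these 22 was called with either sign. Kdm5b in set 1 (−0.05 to 0.08 when 1 array was left out) and Kdm4c in set 4 (−0.06 to 0.06), at 0.00 in the fit of all arrays, took both signs. Kdm6b in set 1 was −0.01 after quantile normalization and −0.04 to 0.10 when 1 array was left out. Leaving out 1 array moved Kdm4a (−0.05 to 0.03), Kdm5a (−0.02 to 0.14) and Kdm6b (−0.06 to 0.11) in set 3, Kdm5a in set 4 (−0.14 to 0.01), Kdm2a (−0.04 to 0.11), Kdm4b (−0.09 to 0.01), Kdm4c (−0.02 to 0.07) and Kdm6b (−0.08 to 0.08) in μ-g v.s. 1-g, and Kdm3b (−0.02 to 0.03) and Kdm4c (−0.02 to 0.07) in 2-g v.s. 1-g. The cause was not tested, beyond the fewer arrays of some fits. The deposited values carry no detection call, so a low level cannot be told from background, and 3 arrays per group limit the precision.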

Other observations

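Genes of cell division were read as a further list. Limma called 0 of 7 measured proliferation genes in each of the 6 comparisons, with 3 higher at unadjusted p in set 1, 2 in set 2 and 3 in set 3, against 9.94%, 8.65% and 7.79% of all genes, and 0 in the comparisons inside the magnet. Their median log2 fold change was 0.08 in set 2 and 0.02 in set 4. Their mean log2 level ran from 11.46 to 11.62 on the μ-g arrays, 11.45 to 11.63 on the 1-g arrays, 11.52 to 11.53 on the 2-g arrays and from 11.30 to 11.47 on the control arrays.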
